A study of Danio rerio with 80 samples.

Results

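Carbonic anhydrase genes were followed through single adult zebrafish brains, in both sexes and after 5 developmental treatments. The genes were ca2, ca4a, ca6, ca7, ca8, ca10a, ca14 and cahz, and each symbol matched 1 of the 23473 entries of the deposited table. They were selected on the sex difference of ca6 in these same fish, so every male-to-female difference in level given here is a description without a test. Of the 8, ca6, ca8, ca10a and cahz had a mean of at least 10 normalized units over all fish and stood among the 10231 genes tested, while ca2, ca4a, ca7 and ca14 lay below that limit. The mean of ca6 was 3.38 on the log2 scale against a limit of 3.32, and its female mean was 2.83, so it entered the tested genes through its level in males. No count over the 4 tested genes stands for all 8.

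Carbonic anhydrases are zinc enzymes that convert carbon dioxide and water into bicarbonate and a proton, and back. Cytosolic forms buffer the cell interior and supply ion transporters, membrane-bound and secreted forms act on the fluid outside the cell, and the carbonic-anhydrase-related proteins keep the fold without the catalytic activity. In brain tissue the family takes part in buffering around synapses, in the production of cerebrospinal fluid and in carbon dioxide transport by the red cells that fill the vessels.

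All fish were wild type of the AB strain, and whole brains were taken 1 fish at a time. Larvae had been exposed from 6 to 96 hours after fertilization and were then raised in clean water. POP10 and POP70 fish received a mixture of persistent organic pollutants at 10 and 70 times the levels found in Scandinavian blood. PFOS10 and PFOS70 fish received perfluorooctane sulfonate alone, a fluorinated surfactant that is also in the mixture, at 0.3 and 2.06 mg/L, and control fish received the solvent, 0.1% DMSO. Each treatment had 4 exposure replicates, numbered 3, 4, 5 and 6, sampled at 240, 233, 226 and 219 days after fertilization. Each replicate, called a tank here, gave 2 females and 2 males, so that 80 libraries form 10 groups of 8 fish. A number has 1 age in every treatment, so number and age cannot be told apart. The 4 exposures share their control fish.

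The reads recovered from the normalized values came to 9006319 to 20347693 per library. At the limit of 10 units a library held 71.2 to 144 reads of a gene. Values are not divided by transcript length, so levels are compared between fish and not between genes. In bulk brain RNA, fewer cells of a type and less RNA per cell cannot be told apart. Principal component 1 over the tested genes held 40.8% of their variance and is called the main component here. The component was not centred within groups and can hold differences between treatments and sexes. Its mean was -0.92 in number 3, 0.34 in number 4, -0.02 in number 5 and 0.60 in number 6. As a covariate it can therefore take up treatment, sex or number differences of a gene that follows it. Radial glia, myelin and Purkinje cell genes were abundant, as for brain, and the summed level of 10 pituitary genes had a median of 3.76 on the log2 scale.

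3 libraries labelled male stood apart. Levels of dio2, a thyroid hormone deiodinase gene, ran from 6.13 to 8.00 in the other 37 males and from 3.88 to 5.81 in the 40 females, on the log2 scale. The 3 libraries lay at 3.57 to 4.42, inside the female range or below it. They were both control males and 1 POP10 male of number 3, and their ca6 levels were 3.07, 2.97 and 2.42. The POP10 library had the fewest reads of all 80, 9006319. The control library with ca6 at 2.97 had the lowest main component, -2.66, and 16.7% mitochondrial reads. The sex differences of ca6 are given with and without these 3 libraries. The other 37 males averaged 4.02 in ca6, so larger sex differences of ca6 without the 3 follow from the removal. This split was noticed after the values were seen, and what it reflects was not tested.

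The secreted enzyme carried the sex difference on which the set was chosen. In mammals ca6 encodes the carbonic anhydrase of saliva and milk, and the zebrafish gene lies at chromosome 23, 22634442 to 22650992, on the reverse strand of GRCz11. The 80 libraries held 35 to 347 reads of ca6, with a median of 86. In control females the lowest, median and highest log2 levels of ca6 were 2.77, 3.09 and 4.46, and in control males they were 2.97, 3.73 and 4.98. In POP10 females they were 2.26, 2.72 and 3.198, and in POP10 males 2.42, 3.75 and 4.43. Of the POP10 males, 1 fell within the female range, the library of low dio2. In POP70 females they were 2.16, 2.96 and 3.19, and in POP70 males 2.79, 4.17 and 4.54. In PFOS10 females they were 2.14, 2.65 and 3.41, and in PFOS10 males 3.76, 4.22 and 4.78. In PFOS70 females they were 2.29, 2.64 and 3.196, and in PFOS70 males 3.43, 3.93 and 4.56. The sexes overlapped in control, POP10 and POP70 fish and did not overlap in PFOS10 or PFOS70 fish, where all 8 males lay above all 8 females. Among the 10231 tested genes, 0.0293% had every male above every female in PFOS10 fish and 0.088% in PFOS70 fish. Those shares were 0.00977% in control, 0.0195% in POP10 and 0.0293% in POP70 fish.

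**Figure D1:**
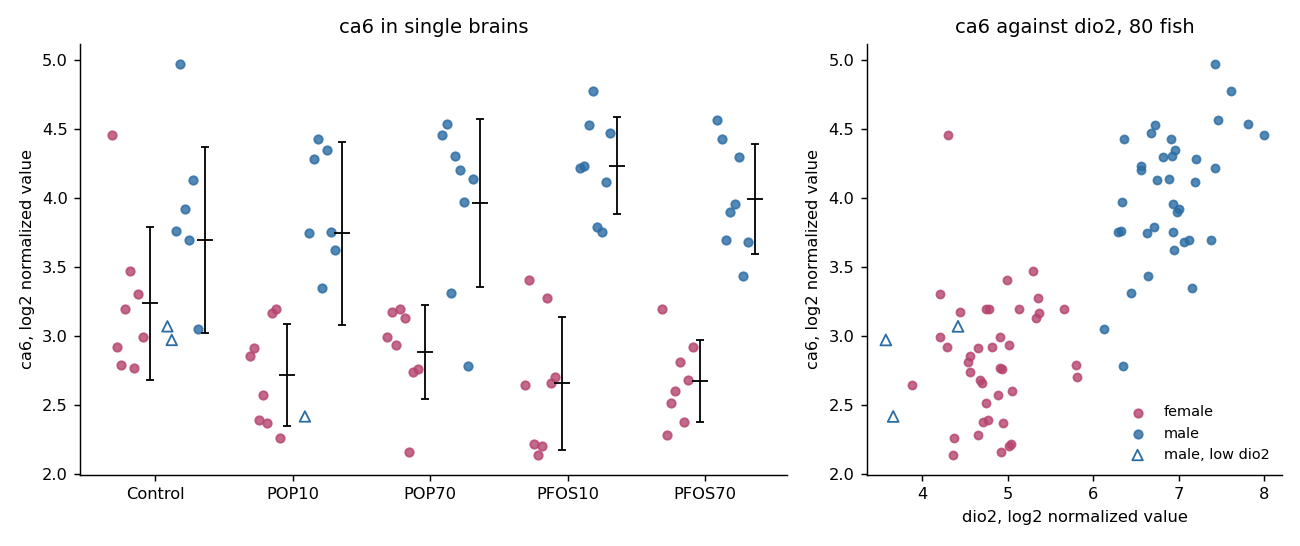
Left, the log2 normalized ca6 level of each fish by treatment, females in pink and males in blue, with the mean and SD of each group of 8 as black marks. Right, ca6 against dio2 in all 80 fish. Open triangles are the 3 male libraries with dio2 between 3.57 and 4.42, whose ca6 lay at 2.42 to 3.07, within the range of the females.

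Over all fish, ca6 averaged 3.93 ± 0.56 (SD, n = 40) in males and 2.83 ± 0.45 (SD, n = 40) in females on the log2 scale. Males were higher by 1.09 ± 0.11 (SE), or 2.13-fold, and by 1.18 ± 0.11 (SE), or 2.27-fold, without the 3 male libraries of low dio2. In size this was rank 6 of the 10231 tested genes, or rank 5 without those 3 libraries, and the median absolute sex difference of the tested genes was 0.05. Sex accounted for 53.9% of the variance of ca6, or 62.4% without the 3 libraries, and for 0.0542% to 3.72% of that of each of the other 7 genes. ca6 is the gene for which the set was proposed, so this rank and share describe the selection.

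The male-to-female difference of ca6 was 0.46 ± 0.31 (SE) in control fish and 1.25 ± 0.11 (SE) over the 4 exposed groups. Among the exposed groups it was 1.03 ± 0.27 with POP10, 1.08 ± 0.25 with POP70, 1.58 ± 0.21 with PFOS10 and 1.32 ± 0.18 with PFOS70 (SE). Without the 3 male libraries it was 0.68 ± 0.32 in control, 1.22 ± 0.20 in POP10 fish (SE) and 2.47-fold in all exposed fish, and the 7 remaining POP10 males then lay above all 8 females. Group means show both sides of this spread. Female means of ca6 were 3.24 in control fish and 2.66 to 2.89 in the exposed groups, and male means were 3.70 in control fish and 3.74 to 4.24 in the exposed groups. Without the 3 libraries the male means were 3.92 in control fish and 3.93 to 4.24 in the exposed groups. Without number 3 the male-to-female difference was 0.84 ± 0.28 in control and 0.97 ± 0.29 in POP70 fish (SE, 6 fish of each sex). It was 1.305 ± 0.250 in POP10, 1.71 ± 0.25 in PFOS10 and 1.18 ± 0.15 in PFOS70 fish (SE, 6 fish of each sex). 1 control female, fish 1 of number 3, had a ca6 level of 4.46, and the next control female had 3.47.

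Within tanks, males exceeded females in mean ca6 in 19 of 20, and both males lay above both females in 17 of 20. Without the 3 libraries 19 tanks had both sexes, with males higher in mean in 19 and no male within the range of the females in 18. Over all pairs of a tested gene and a tank, 19.3% had both males above both females. The lowest difference was -0.67, in the control tank of number 3 that holds that female and both control males of low dio2. The next was 0.20 in the POP10 tank of number 3, which holds the third such male, and the highest was 2.48 in the PFOS10 tank of number 4. By number, the ca6 difference was 0.78 ± 0.31 in number 3, 1.54 ± 0.20 in number 4, 1.16 ± 0.18 in number 5 and 0.90 ± 0.19 in number 6 (SE, 10 males and 10 females each). The value in number 3 became 1.23 ± 0.21 (SE) with its 7 remaining males, so its place as the lowest number rests on the 3 libraries.

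**Figure D2:**
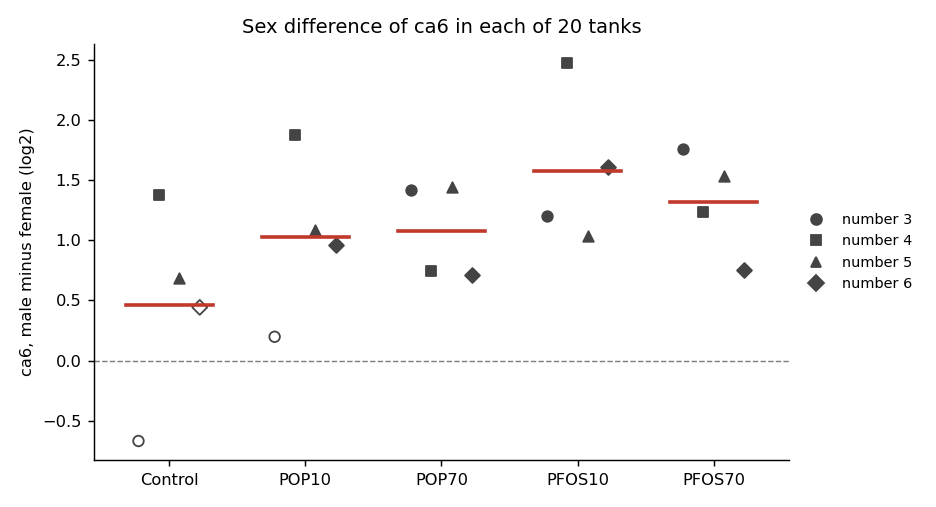
Male mean minus female mean of ca6 (log2) in each of the 20 tanks, 2 fish of each sex per tank. Filled symbols are the 17 tanks with both males above both females, open symbols the other 3, symbol shape gives the replicate number, and red lines are the means of 4 tanks. The control tank of number 3, at -0.67, is the only point below 0.

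The other 7 genes had smaller sex differences. In males minus females over all fish, ca8 differed by 0.09 ± 0.12, ca10a by 0.01 ± 0.04, cahz by -0.03 ± 0.09 and ca7 by 0.13 ± 0.18 (SE, log2). The difference was 0.28 ± 0.32 for ca2, 0.28 ± 0.36 for ca4a and -0.51 ± 0.29 for ca14 (SE, log2). Each of these 7 was under 2 SE, with and without the 3 libraries. In POP70 fish the ca2 difference was 1.13 ± 0.54 and the ca4a difference 1.48 ± 0.64 (SE), with 5 of 8 males above the highest female for each. Without number 3 these differences were 0.38 ± 0.52 for ca2 and 0.84 ± 0.49 for ca4a (SE, 6 fish of each sex). The main component averaged 0.34 in POP70 males and -0.68 in POP70 females, and its part in these differences was not tested.

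The genes whose level most resembled that of ca6 were found by correlating log2 values over the 80 fish after the mean of each of the 10 groups was subtracted. The highest Pearson r was 0.63 for atp1a3b, a sodium pump subunit of neurons, followed by 0.61 for slc7a10a, an amino acid transporter, and 0.57 for nqo1, a quinone reductase. tmprss4b had 0.55, si:dkey-188i13.11 had 0.54 and ssfa2 had 0.54. The lowest r values were -0.54 for phc2a, a polycomb group gene, and -0.53 for pcloa, which encodes a presynaptic scaffold protein. The male-to-female difference itself, which the centring removed, was 0.43 for atp1a3b, 0.45 for slc7a10a, 0.61 for tmprss4b and 0.58 for ssfa2. It was smaller for nqo1, at 0.20, and for si:dkey-188i13.11, at 0.10. The 3 male libraries of low dio2 were kept among the 80 fish, and their part in these r values was not tested. The 80 points share libraries and depth, and the genes were picked as extremes of 10231.

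Myelin gene levels are given beside ca6. The log2 of the summed level of 16 oligodendrocyte and myelin genes averaged 13.05 in females, with a range of 12.52 to 13.64, and 13.36 in males, with a range of 12.37 to 14.09, or 13.40 in the 37 other males. Across the 80 fish its r with ca6 was 0.42 after group means were subtracted, and 0.24 to 0.62 within single numbers. It was 0.30 without the 2 fish farthest from the median of the centred myelin sum, and 0.29 without the 3 male libraries of low dio2. No single myelin gene had an r with ca6 above 0.5, and plp1a, a major myelin protein gene, had the highest at 0.45. The part of myelin in the sex difference of ca6 was not tested.

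Exposure was tested with limma over all genes, as the difference from control averaged over the sexes, with Benjamini-Hochberg adjustment and a threshold of 0.05. No member among ca6, ca8, ca10a and cahz passed in any exposure, where 0.0195% of tested genes passed for POP10, 0% for POP70, 0.00977% for PFOS10 and 0% for PFOS70. In a fit over all 23473 entries none of the 8 passed, beside 0.00852% of entries for POP10, 0% for POP70, 0.00426% for PFOS10 and 0% for PFOS70. At an unadjusted p under 0.05, limma counted 0 of the 4 tested genes in every exposure, beside 3.96% of tested genes for POP10, 1.55% for POP70, 10.5% for PFOS10 and 5.51% for PFOS70. Of the other 4 it counted 1, ca4a in PFOS10, where 12.1% of all entries lay under that threshold, beside 3.96% for POP10, 2.31% for POP70 and 7.63% for PFOS70. Voom on the recovered reads called 0 members, and counted ca4a in PFOS10 at an unadjusted p under 0.05.

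In POP10 fish ca6 was -0.24 ± 0.17 (SE) from control on the log2 scale, with a 95% interval of -0.58 to 0.11. In the other exposures ca6 lay between -0.13 and -0.02 from control, with intervals within -0.48 and 0.33. Without the 3 male libraries of low dio2 the 4 differences of ca6 ran from -0.25 to -0.13, and none was called. ca8 was -0.26 ± 0.18 in POP10 and 0.27 ± 0.18 in PFOS10 fish (SE). The interval of ca8 was -0.62 to 0.11 in POP10 and -0.10 to 0.63 in PFOS10 fish. ca10a had the narrowest intervals, and its 4 differences ran from 0.01 to 0.08. The 4 differences of cahz ran from -0.12 to 0.07.

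Among the sparse genes, ca4a was 1.40 ± 0.55 (SE) above control in PFOS10 fish, with an interval of 0.32 to 2.49, an unadjusted p of 0.0121 and an adjusted p of 0.401 by limma without the low-value limit. ca2 was 0.998 ± 0.506 (SE) above control in the same fish, with an interval of -0.01 to 2.01 and an adjusted p of 0.415 by limma. The main component averaged 0.39 in PFOS10 and -0.34 in control fish. With that component as a covariate, the PFOS10 difference was 0.36 ± 0.25 (SE) for ca4a and -0.02 ± 0.17 (SE) for ca2. Its r was 0.90 with ca4a and 0.95 with ca2 after group means were subtracted, so this covariate can remove an exposure difference of either gene. The fit with the component cannot decide whether exposure changed ca4a or ca2. Leaving out number 6 brought the ca4a difference to 0.82 ± 0.63 (SE) and that of ca2 to 0.58 ± 0.59 (SE). Without the 3 male libraries of low dio2 the ca4a difference was 1.25 ± 0.56 (SE) and that of ca2 was 0.70 ± 0.51 (SE). Over all alternatives the PFOS10 difference ran from 0.36 to 1.75 for ca4a and from -0.02 to 1.36 for ca2. At an unadjusted p under 0.05, limma counted ca4a with the replicate number as a block and with a tank correlation. It counted ca2 with that block, with quantile normalization and without number 4 or 5. Neither gene was counted with the component as a covariate or without number 6, and no alternative called either.

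**Figure D3:**
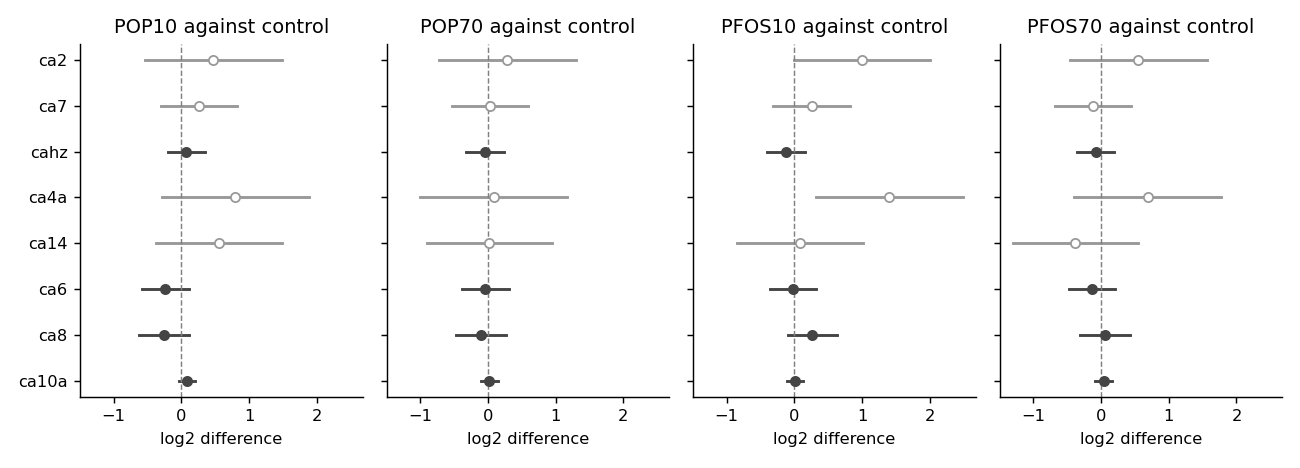
Difference of each gene from control, averaged over the sexes, with 95% intervals (log2), in the 4 exposures. Filled points are the genes fitted among the 10231 tested and open points those below the limit, fitted over all entries. The interval that excludes 0 is that of ca4a in PFOS10, from 0.32 to 2.49, and its adjusted p was 0.401 by limma.

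The tank is the unit of exposure, so the mean of the 4 fish of each tank was also compared, 4 tanks against 4, by an exact two-sided permutation test. Over the 8 genes and 4 exposures 32 tests were run, unadjusted, and 0 had an exact p under 0.05. The smallest exact p was 0.114, for ca4a in PFOS10 and for ca6 in POP10 tanks, where 4 against 4 cannot go below 0.0286. With tanks paired by number, an exact two-sided sign-flip permutation test cannot go below 0.125, and 8 of the 32 tests reached that value, those with 1 direction in all 4 numbers. In POP10 tanks ca2, ca4a and ca10a lay above control in every number, and ca6 and ca8 lay below it. The other 3 were ca4a, higher in PFOS10, ca8, lower in POP70, and ca14, lower in PFOS70 tanks. Without any effect, a single test has a chance of 0.125 of showing 1 direction in all 4 numbers. The tests share the control tanks and are not independent, and the share over all genes was not counted, so no pattern is read from them. Tank means of ca6 were 2.98 to 3.42 in POP10 and 3.36 to 3.68 in control fish, and those of ca4a were 0.65 to 3.59 in PFOS10 and -0.25 to 1.40 in control fish.

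A limma F test over the 4 exposures together called none of the 4 tested genes, beside 0.0684% of all tested genes, and none of 8 without the limit, beside 0.017%. Its smallest unadjusted p was 0.0740, for ca8. The F test of whether exposure effects differed between the sexes is given for the other 7 genes and not for ca6, whose sex difference chose the set. It called none of ca8, ca10a and cahz, beside 0% of tested genes, and none of ca2, ca4a, ca7 and ca14, beside 0% of all entries. At an unadjusted p under 0.05 it counted ca10a (unadjusted p = 0.0494, adjusted p = 0.999 by limma), beside 138 of the 10231 tested genes or 1.35%, and none of the 4 sparse genes, beside 1.99% of all entries. ca10a was not counted with the main component as a covariate, without number 5, without number 6 or without the PFOS70 fish of number 5. The other alternatives counted it. For ca10a, POP70 males averaged 6.82 ± 0.19 and POP70 females 7.02 ± 0.16 (SD, n = 8 each), while POP10 males averaged 7.06 ± 0.22 and POP10 females 6.90 ± 0.17 (SD, n = 8 each).

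Replicate number was tested by a limma F test with the 10 groups in the fit. 3 of the 4 tested genes passed, ca10a (adjusted p = 0.00233), ca8 (adjusted p = 0.00286) and cahz (adjusted p = 0.0381), beside 68% of all tested genes, so the share among these genes is near the background. The cahz call was lost with an estimated tank correlation (adjusted p = 0.0949) and without number 4 (adjusted p = 0.633 by limma). ca6 had an adjusted p of 0.612 by limma, and of 0.0497 without the 3 male libraries of low dio2. Those 3 libraries are all of number 3 and low in ca6, so leaving them out raises number 3 by construction. Without the low-value limit, ca2 and ca4a passed (limma adjusted p = 5.6e-05 and 0.000146) and ca7 and ca14 did not (adjusted p = 0.672 and 0.303), beside 45.9% of all entries. The p-values measure the spread between fish, and fish of 1 tank shared their water. The numbers also differed in circadian clock genes, of which 18 of 18 tested passed by limma, beside 68% of all tested genes. The log2 sum of 26 clock genes averaged 11.60 in number 3, 11.16 in number 4, 10.80 in number 5 and 11.84 in number 6. Number 5 was not uniform, with a median of 10.60 and a range of 10.38 to 12.06, while no PFOS70 fish lay below 11.01. The part of the clock in the number differences of the carbonic anhydrase genes was not tested.

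**Figure D4:**
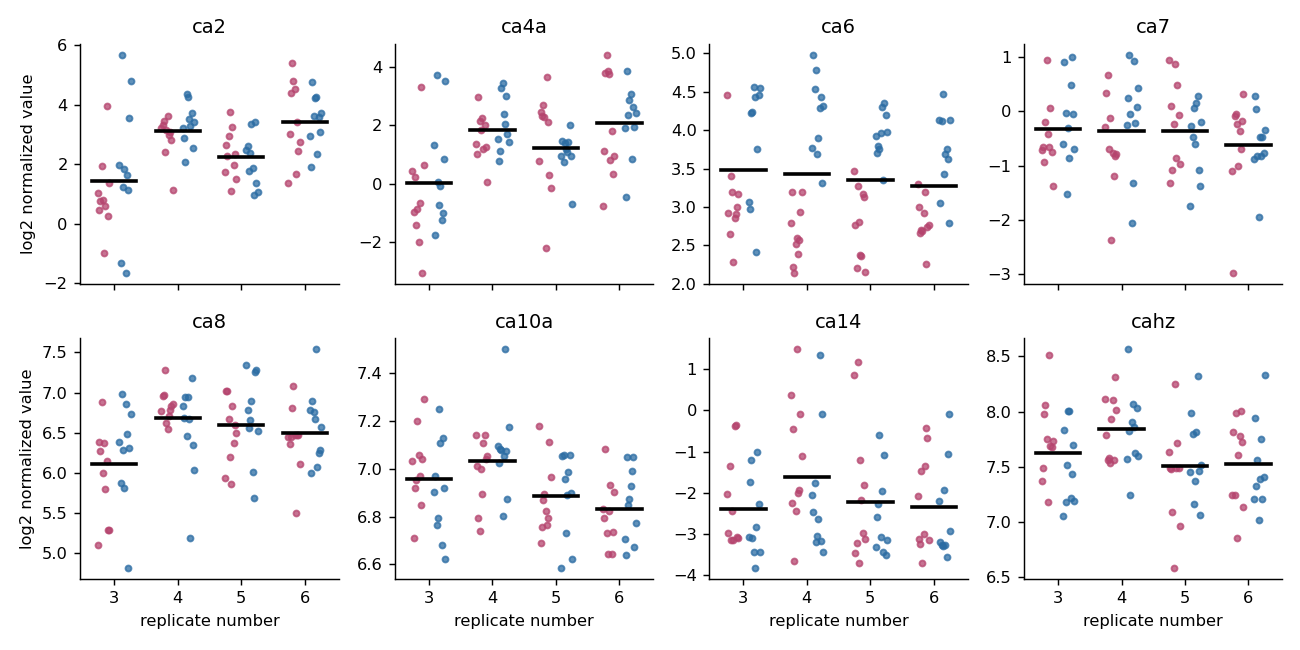
Log2 normalized level of each gene by replicate number, 20 fish per number, females in pink and males in blue, with black lines at the means. ca2 and ca4a are lowest in number 3, at means of 1.45 and 0.01, while ca6 differs between the colours in every number. Vertical scales differ between panels.

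Among the cytosolic enzymes, cahz encodes an abundant cytosolic carbonic anhydrase of zebrafish blood and lies at chromosome 2, 29477383 to 29485408, on the reverse strand. Its log2 level ran from 6.59 to 8.56 over the 80 fish, on 978 to 4174 reads. Control females had a lowest, median and highest level of 7.24, 7.56 and 8.11, and control males 7.06, 7.70 and 8.56. The other 8 groups had medians of 7.42 to 7.86, and all groups overlapped. By number, cahz averaged 7.63 in number 3, 7.84 in number 4, 7.51 in number 5 and 7.53 in number 6.

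The level of cahz was correlated with that of red cell genes. Its r with the log2 sum of 15 red cell entries was 0.83 over 80 fish after group means were subtracted, and 0.70 to 0.89 within single numbers. The 3 entries most like cahz among all tested genes were hbba1, a beta globin, with r values of 0.80 and 0.80 for 2 entries of the same identifier, and si:ch211-103n10.5 with 0.80. Of the 15 red cell entries 13 had an r with cahz above 0.5, against 0.655% of all tested genes. The exceptions were hbae1.3, near 0 reads, and ank1a, with an r of -0.29. Beyond the globins, slc4a1a, the chloride-bicarbonate exchanger of red cells, had an r of 0.78 and alas2, the first enzyme of red cell haem synthesis, 0.71. hbba2 and hbaa2 were higher in males by 0.91 and 1.12 on the log2 scale, while cahz differed by -0.03 and hbba1 by -0.02 and 0.12 in its 2 entries. The red cell sum ran from 9.45 to 12.72 in females and from 10.38 to 12.90 in males, and the part of retained blood in these levels was not tested.

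ca2 encodes the main cytosolic enzyme of glia and many other cells in mammals, and lies at chromosome 24, 32650227 to 32665283, on the reverse strand. The entry si:ch211-282b22.1 spans it on the other strand. Whether reads were assigned by strand is not given in the sources used here. The r of the 2 genes was 0.04, and the log2 level of the spanning entry ran from 4.46 to 5.39. Whether the 2 entries share reads was not tested. The 80 libraries held 4 to 473 reads of ca2, and its log2 level spanned -1.67 to 5.68. In number 3 the lowest, median and highest levels were -1.67, 1.18 and 5.68, and in number 4 they were 1.14, 3.23 and 4.37. In number 5 they were 0.95, 2.30 and 3.75, and in number 6 they were 1.37, 3.51 and 5.42. Number 3 held both the lowest and the highest fish, and the numbers overlapped. By group, control females had 0.47, 2.18 and 3.32, control males -1.33, 2.54 and 3.23, PFOS10 females 0.76, 2.67 and 5.42, and PFOS10 males 1.22, 3.01 and 5.68.

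The level of ca2 was correlated with the main component. The r of ca2 with it was 0.95 over 80 fish after group means were subtracted, and 0.87 to 0.96 within single numbers. The tested genes most like ca2 were pcsk2, a peptide hormone protease (r = 0.96), jph3, a junctional membrane protein of neurons (r = 0.95), and vamp2, a synaptic vesicle fusion protein (r = 0.95), which were looked up after the values of ca2 had been seen. The share of mitochondrial reads was 16.7% at the lowest component, -2.66 in a control male of number 3. It was 8.66% at the highest, 1.85 in a PFOS10 female of number 6. Against that order, a POP10 female of number 4 had 17.4% with a component of 0.28. How the main component relates to this share, and what the component reflects, was not tested.

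ca7, a cytosolic enzyme of neurons in mammals, lies at chromosome 7, 44802353 to 44813763, on the forward strand. It had 1 to 21 reads per library and a median of 7. Group medians of the ca7 log2 level ran from -0.77 in POP70 females to 0.04 in POP10 males, and every group overlapped every other. The ca7 median was -0.69 in control females and -0.26 in control males.

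The membrane-bound enzymes were sparse. ca4a belongs to the ca4 type, anchored by a lipid tail on the outer face of the cell membrane, and lies at chromosome 5, 2241723 to 2282256, on the reverse strand. It had 1 to 175 reads per library. In control females the lowest, median and highest log2 levels of ca4a were -0.99, 0.89 and 2.46, and in control males -1.75, 1.12 and 1.89. In PFOS10 females they were -1.42, 2.49 and 4.40, and in PFOS10 males 0.07, 1.87 and 3.84. In PFOS70 females they were -2.21, 2.04 and 3.85, and in POP70 females -3.07, 0.32 and 1.24. All groups overlapped, and all 4 exposures reached levels above the highest control. The highest level was 3.64 in POP10 fish and 3.52 in POP70 fish. By number ca4a averaged 0.01 ± 1.83 in number 3, 1.84 ± 0.88 in number 4 and 2.07 ± 1.49 in number 6 (SD, n = 20 each), and 1.23 in number 5.

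The level of ca4a was correlated with that of ca2 and with the main component. Its r was 0.84 with ca2 and 0.90 with the component over 80 fish after group means were subtracted. With the component as a covariate the number test of ca4a gave an adjusted p of 0.946 by limma, and without number 3 it gave 0.114. The component itself differed between numbers, so that covariate can take up a number difference of ca4a. ca5a, a mitochondrial carbonic anhydrase outside the set, went the same way, with an r of 0.89 with ca2 and 0.85 with ca4a. The tested genes most like ca4a were adam11 (r = 0.92), efr3ba (r = 0.92) and btbd3b (r = 0.91), also looked up afterwards.

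ca14, whose protein spans the cell membrane with its active site outside, was the rarest of the set and lies at chromosome 16, 9540033 to 9558103, on the forward strand. Its libraries held 0 to 29 reads, and 25 of 80 held none, which allows up to 3 reads in such a library by counting error alone. The highest ca14 level was 1.48 in a PFOS70 female, and group medians ran from -3.06 in PFOS70 males to -1.64 in POP10 females. The r of ca14 with the summed pituitary and pineal list was 0.65 over 80 fish, and 0.41 to 0.77 within single numbers. Of the 14 entries of that list 4 had an r above 0.5, against 0.186% of all tested genes. The median r of the 14 was 0.09, against 0.06 for all tested genes, and the lowest was -0.16 for cga. Only 1 of the 14 entries was among the tested genes and 8 had a mean log2 level below 0. The tested genes are therefore an unlike background, better measured than most of this list. Split after these values were seen, the 3 pineal and photoreceptor genes aanat2, gnat1 and gngt1 gave an r of 0.60 with ca14 and the 10 pituitary genes gave 0.07. tph2, a serotonin synthesis enzyme of raphe and pineal, had 0.65. The 3 pineal genes summed to between 0.07 and 9.19 on the log2 scale across fish. The genes most like ca14 included pde6a, a photoreceptor phosphodiesterase (r = 0.66), after asip2b (r = 0.71) and slc6a2 (r = 0.69). How much pineal tissue stayed with each brain was not tested.

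The carbonic-anhydrase-related proteins were well measured. ca8 encodes a protein that binds the inositol trisphosphate receptor and is concentrated in cerebellar Purkinje cells in mammals, and it lies at chromosome 2, 21855036 to 21878527, on the forward strand. It had 282 to 1797 reads per library. Control females had a lowest, median and highest log2 level of 5.10, 6.41 and 7.01, and control males 5.87, 6.73 and 7.34. PFOS10 females had 6.27, 6.85 and 7.29, and POP10 males had 4.81, 6.16 and 7.25, the widest spread of any group. All groups of ca8 overlapped. By number ca8 averaged 6.10 ± 0.61 in number 3, 6.68 ± 0.45 in number 4, 6.60 ± 0.48 in number 5 and 6.50 ± 0.43 in number 6 (SD, n = 20 each). Leaving out number 3 brought the adjusted p of its number test to 0.498 by limma, and the component as a covariate brought it to 0.113.

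The level of ca8 was close to the summed Purkinje level and less so to most single Purkinje genes. Its r with the log2 sum of 14 Purkinje entries was 0.88 over 80 fish after group means were subtracted, and 0.78 to 0.89 within single numbers. casq2, a calcium store protein gene, had an r of 0.81 with ca8, cbln12, a cerebellin on the Purkinje list, 0.81, and atl2 0.80. Of the 14 Purkinje entries 5 had an r above 0.5, against 5.34% of all tested genes, and the median was 0.43, against 0.12 for all tested genes. aldoca had 0.79, grid2ipa 0.73 and pvalb7 0.65, and pcp4a had -0.23. The Purkinje sum averaged 11.33 in number 3 and 11.52 to 11.57 in the other numbers, and its part in the lower ca8 of number 3 was not tested.

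ca10a encodes a secreted related protein that binds neurexins in mammals, and lies at chromosome 12, 21298317 to 21553637, on the forward strand. It was the steadiest of the set, with a within-group SD of 0.18 against 0.40 for cahz, 0.49 for ca6 and 0.53 for ca8 on the log2 scale. Group medians of ca10a ran from 6.82 in POP70 males to 7.05 in POP10 males. By number it averaged 6.96 ± 0.19 in number 3, 7.03 ± 0.17 in number 4, 6.88 ± 0.16 in number 5 and 6.83 ± 0.14 in number 6 (SD, n = 20 each). The number call of ca10a was lost when number 4 was left out (adjusted p = 0.0873 by limma). The genes most like ca10a were FAM19A3, of a family of small secreted brain proteins (r = 0.77), tmem59l (r = 0.69) and ndrg2, an astroglial gene (r = 0.68). Its paralog ca10b had an r of 0.52 with ca10a.

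**Figure D5:**
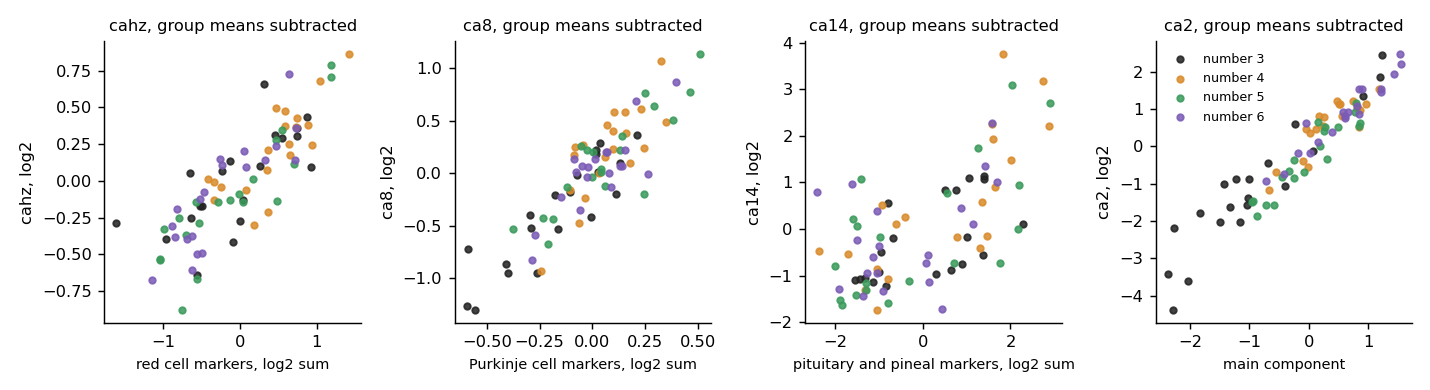
Log2 levels over 80 fish after the mean of each of the 10 groups was subtracted, coloured by replicate number: cahz against the red cell sum (r = 0.83), ca8 against the Purkinje sum (r = 0.88), ca14 against the pituitary and pineal sum (r = 0.65) and ca2 against the main component (r = 0.95). Points of number 3 reach lowest for ca8 and ca2.

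11 further carbonic anhydrase entries were found, of which ca10b and ca16b were tested. ca16b, a receptor tyrosine phosphatase with an inactive carbonic anhydrase domain, passed the number test (adjusted p = 0.033 by limma) and ca10b did not (adjusted p = 0.542). In PFOS70 fish ca16b was 0.14 ± 0.06 (SE) from control, with an adjusted p of 0.773 by limma. ca5a, ca12, car15 and ca9 were sparse, with mean log2 levels of 2.40, 1.17, 0.82 and -2.09. ca4b, ca4c, ca15a, ca15b and ca15c had 0 reads in 63, 72, 75, 77 and 78 of the 80 libraries.

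Ion transporters that work beside the enzymes were listed with earlier results known. In the exposure tests limma called 0 of the 8 tested bicarbonate transporters, 0 of 7 proton and ammonia transporters, 0 of 23 vacuolar proton pump entries and 0 of 1 monocarboxylate transporter. Their median differences from control were 0.00 to 0.09, 0.03 to 0.07, -0.01 to 0.01 and 0.40 to 1.37 on the log2 scale over the 4 exposures, beside 0.00 to 0.03 for all tested genes. The 1 monocarboxylate transporter was slc16a8, at 1.37 ± 0.74 (SE) in PFOS10 fish with an adjusted p of 0.458 by limma. slc9a6b, an endosomal sodium-proton exchanger, was 0.14 ± 0.06 (SE) above control in PFOS10 fish with an adjusted p of 0.456 by limma. By number 5 of 8 bicarbonate transporters, 2 of 7 proton and ammonia transporters, 16 of 23 pump entries and the monocarboxylate transporter passed, beside 68% of all tested genes. They included slc26a11 (limma adjusted p = 9.0e-05), slc4a10b (5.0e-04), slc9a6a (7.5e-04) and atp6v0b.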

How the data were processed

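Per the labels' protocols, poly-A RNA of single whole brains was sequenced as 150-base read pairs, and GRCz11, STAR 2.5.4b, Trim Galore 0.4.5, R 3.5.0 and DESeq2 are listed in the submitters' processing notes. The counting step, annotation and strand handling are not given in the sources used here. The authors deposited log2 normalized values per gene and fish, which are not divided by gene length. Linear values summed to over 1000000 per library, and all 80 columns matched 1 sample title. All values below 5000 reads came out as whole multiples of 1 read within 0.02 reads, and an entry without reads stands at 0.9 reads. Of 22925 gene identifiers, 22752 were in the name table used.

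Log2 values were fitted with limma 3.58.1 in R 4.3.3 with a mean-variance trend, 1 mean for each of 10 groups, for genes with a mean of at least 10 linear units on the log2 scale. Genes below it were fitted over all 23473 entries. Python 3.11.15 and scipy 1.17.1 gave the rest. Tested on simulated data for POP10 against control, 187 of 200 genes changed by 1 log2 unit were recovered among 10231, with 9 false calls. The simulated noise was independent between fish and genes, without tank or number differences, while the estimated tank correlation of the real fit was 0.24. The simulated rates therefore check the fit and need not hold for these fish or for genes below the limit. The members and gene lists were chosen with earlier results of these data known. The text names all members and other carbonic anhydrases, the tested genes most like each tested member (6 and the 2 least alike for ca6, 3 for others), and list genes by smallest p. Per the labels tanks of 1 number share 1 age, so fits and tank tests paired by number were run beside the unpaired ones. Of 40 same-number tank pairs, 36 had a correlation of deviations above 0.1 (median 0.37), and pairs of different number had a median of -0.15. Alternatives were the replicate block, a tank correlation, other filters, quantile normalization, voom, library weights, the main component and leaving out fish. Nothing says that fish of a tank are independent samples of a treatment.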

Additional observations from a re-analysis of the deposited data

Results flagged for a closer look

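In 80 sets of 8 fish (8 genes by 10 groups), 5 had a highest or lowest fish whose gap to the next exceeded Dixon's 95% critical value. Chance flags about 1 in 20 such sets, so 4 would arise by chance. ca2 stood at -1.33 in a control male of number 3, with the next at 1.92, and that is 1 of the 3 male libraries of low dio2. ca2 stood at -1.67 in a PFOS70 male of number 3, with the next at 1.83. ca4a stood at -3.07 in a POP70 female of number 3, with the next at -0.16. ca6 stood high at 4.46 in a control female of number 3, with the next at 3.47. ca6 stood low at 2.16 in a POP70 female of number 5, with the next at 2.74. Of the 5 fish, 4 were of number 3. What sets these fish apart was not tested.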

How the results depend on the processing

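No member was called in any exposure or in the test of all exposures under any alternative run. In the exposure by sex interaction none of the 7 genes other than ca6 was called under any alternative. That test is not given for ca6, whose sex difference chose the set, and its absence stands for no call. With the replicate number as a block the exposure counts stayed at 0 of 4 tested members. Calls among all genes went from 2 to 3 for POP10, 0 to 8 for POP70, 1 to 6 for PFOS10 and 7 to 9 for any exposure. The block changed no call of a member. Over all alternatives the genes called ranged from 0 to 7 for POP10, 0 to 8 for POP70, 0 to 6 for PFOS10, 0 to 40 for any exposure and 2051 to 10785 for number. Members called by number were 3, and 1 to 3 when 1 number was left out, with 1 without number 4. The ca6 number test passed under quantile normalization (adjusted p = 0.00826 by limma) and without the 3 male libraries (0.0497), which are all of number 3 and low in ca6. The cahz call was lost with a tank correlation (0.0949), with voom (0.0562), without the filter (0.0526) and without number 4 (0.633). That of ca10a was lost without number 6 (0.0504) and also without number 4. That of ca8 was lost without number 3 and with the main component as a covariate. The male-to-female difference of ca6 was 0.46 in control fish alone, 0.94 to 1.20 leaving out 1 number, 1.13 with quantile normalization and 0.96 on library-scaled recovered reads with a pseudocount of 1. The sparse ca7, with a median of 7 reads, and ca14, with 0 reads in 25 libraries, are limited by depth.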
